A study of Mus musculus with 14 samples.

Results

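Tuft cell genes were followed across mouse intestine, intestinal adenoma and a colon carcinoma cell line. The 8 genes were *Dclk1*, *Trpm5*, *Pou2f3*, *Gfi1b*, *Il25*, *Avil*, *Gnat3* and *Alox5*, chosen by name, and every array probe that is not a control and carries 1 of these names was taken. They are 8 of the 36282 names on the array. *Dclk1* has 4 probes and each other gene has 1. RNA of 14 samples was hybridised to 1 one-colour Agilent mouse array each. Healthy small intestine of C57BL/6J mice was measured on 3 arrays, adenomas of the small intestine of ApcMin/+ mice on 3, the non-tumour tissue adjacent to such adenomas on 2, colon of C57BL/6J mice on 3, and CT26, a colon carcinoma cell line of BALB/c origin, on 3. ApcMin/+ mice carry 1 truncated copy of the Wnt pathway regulator *Apc* in every cell, so the adjacent tissue carries it as well. By the study's sample list all adenoma and adjacent pieces come from 1 ApcMin/+ mouse, the small intestine samples come from different mice, and 1 colon sample is listed under an ApcMin/+ animal. A p-value between adenomas and adjacent tissue therefore measures the spread between pieces of 1 mouse. Against small intestine or colon, a p-value pools that spread with the spread between the samples of the other group. Neither holds a spread between mice for the adenomas or the adjacent tissue. Which of mouse, genotype and tissue a difference from small intestine belongs to cannot be told apart. Values below are levels on the log2 scale of the spot intensity relative to the 75th percentile of the same array, so that 0 is the level of that percentile.

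Tuft cells are rare chemosensory cells of the gut epithelium. *Pou2f3* encodes the POU-domain transcription factor that the lineage requires, and *Gfi1b* encodes a zinc-finger repressor found in these cells. The cells use a taste-like cascade, in which gustducin (*Gnat3*) is the G-protein subunit and *Trpm5* the cation channel that depolarises the cell. They release interleukin 25 (*Il25*), which starts the type 2 circuit with innate lymphoid cells, and make leukotrienes through 5-lipoxygenase (*Alox5*). *Avil* encodes advillin, an actin-binding protein of the villin family that is also known from sensory neurons, and *Dclk1*, a microtubule-associated kinase that is also expressed in neurons, is the most used marker of tuft cells in mouse intestine and adenoma.

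The probes are shown because the *Dclk1* result below depends on which probe is read. Positions are those of the array files, in NCBI37/mm9, and exon and UTR annotation of that build was not used here. *Dclk1* probe 1 lies at chr3:55266925-55266984 on the plus strand. Probe 2 at chr3:55273441-55273500 is 6.5 kb downstream, probe 3 at chr3:55325921-55325980 is 59.0 kb downstream, and probe 4 at chr3:55340456-55340515 is 73.5 kb downstream. The *Avil* probe at chr10:126453541-126454065 covers 525 bases of genome with 60 bases, so it crosses a splice junction. The *Gnat3* probe lies at chr5:17525427-17525486, and the capitals mark a TGA stop codon that ends its first reading frame. Whole probes are given for *Gnat3*, *Avil* and *Dclk1* probe 1, and the first 30 bases for the others listed. The *Pou2f3* and *Gfi1b* probes are given by position only.
Dclk1 probe 1: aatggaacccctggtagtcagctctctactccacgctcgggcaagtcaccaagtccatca
Dclk1 probe 2: cctcttctttgcagccatacctgactgtac
Dclk1 probe 3: gtggataaacatgtttttgatttgttaccc
Dclk1 probe 4: tgtgaattgttccaaaccattagaaggaaa
Avil: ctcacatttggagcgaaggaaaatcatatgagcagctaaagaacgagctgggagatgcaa
Gnat3: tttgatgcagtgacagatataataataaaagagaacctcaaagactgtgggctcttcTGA
Trpm5: tatgacggatacactggctccaggaggcac
Alox5: tttatgcttcctccaattgcttgcatagag
Il25: gggacaagatggaggacttggggagaaact
The remaining probes lie at chr7:150257434-150257456 (*Trpm5*, minus strand, where the files place 23 bases of the probe), chr6:116360326-116360385 (*Alox5*, minus strand), chr14:55554319-55554378 (*Il25*, plus strand), chr9:42932963-42933022 (*Pou2f3*, minus strand) and chr2:28464982-28465041 (*Gfi1b*, minus strand).

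On the 14 arrays 46.9% to 58.2% of probes were well above background, and each mean rests on 2 or 3 arrays. Epithelial markers were high in each tissue group, with list medians between 7.23 and 8.49, and lay between -5.72 and -5.14 in CT26. Colon replicate 3 stood apart. Its array had the lowest share of probes above background, and within the colon group the median of 10 small intestine enterocyte markers ran from -1.21 to 6.40 and that of 8 colonocyte markers from -3.69 to 4.63, with colon replicate 3 at the small intestine end of both. It held the lowest level of the group in 7 of the 8 tuft cell genes, and 2 of the 8 were well above background on it. Small intestine replicate 3 was the highest of its group in 8 of 8 tuft cell genes, whereas 34.5% of all probes were highest there. Several results that rest on either array are also given without it. Some enterocyte markers varied widely within the small intestine group. *Fabp6* was 9.95, 1.60 and -1.74 there, 8.12 and -0.83 in adjacent tissue, and -1.76, -1.42 and -1.78 in adenomas. *Fabp2* varied less, at 9.70, 10.17 and 10.24 in small intestine. Whether the samples differ in gut region was not tested. In such bulk samples fewer tuft cells and less RNA per tuft cell cannot be told apart.

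The tuft cell genes did not move as a block in adenomas. *Gnat3* and *Trpm5*, the taste cascade pair, were lower in adenomas than in small intestine, *Avil* was higher, and the *Dclk1* probes ranged from no call to a rise. A gene was called when the size of its log2 difference was at least 1.2 and its adjusted p in limma at most 0.01, and where a gene has several probes the brightest on average was used, which for *Dclk1* is probe 4. Of the 8 genes 6 could be tested between adenomas and small intestine and 3 were called, 1 higher and 2 lower, where 21.9% of all probes tested were called. To be tested, a probe had to be well above background on each array of 1 group or the other, and *Gnat3* entered through the small intestine alone, so that the counts and medians of tested genes are descriptions. The median difference of the 6 was -1.24, against -0.15 over all probes. *Pou2f3* and *Il25* missed that mark on at least 1 array of each group and were not tested in any of the 6 comparisons.

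**Figure D1:**
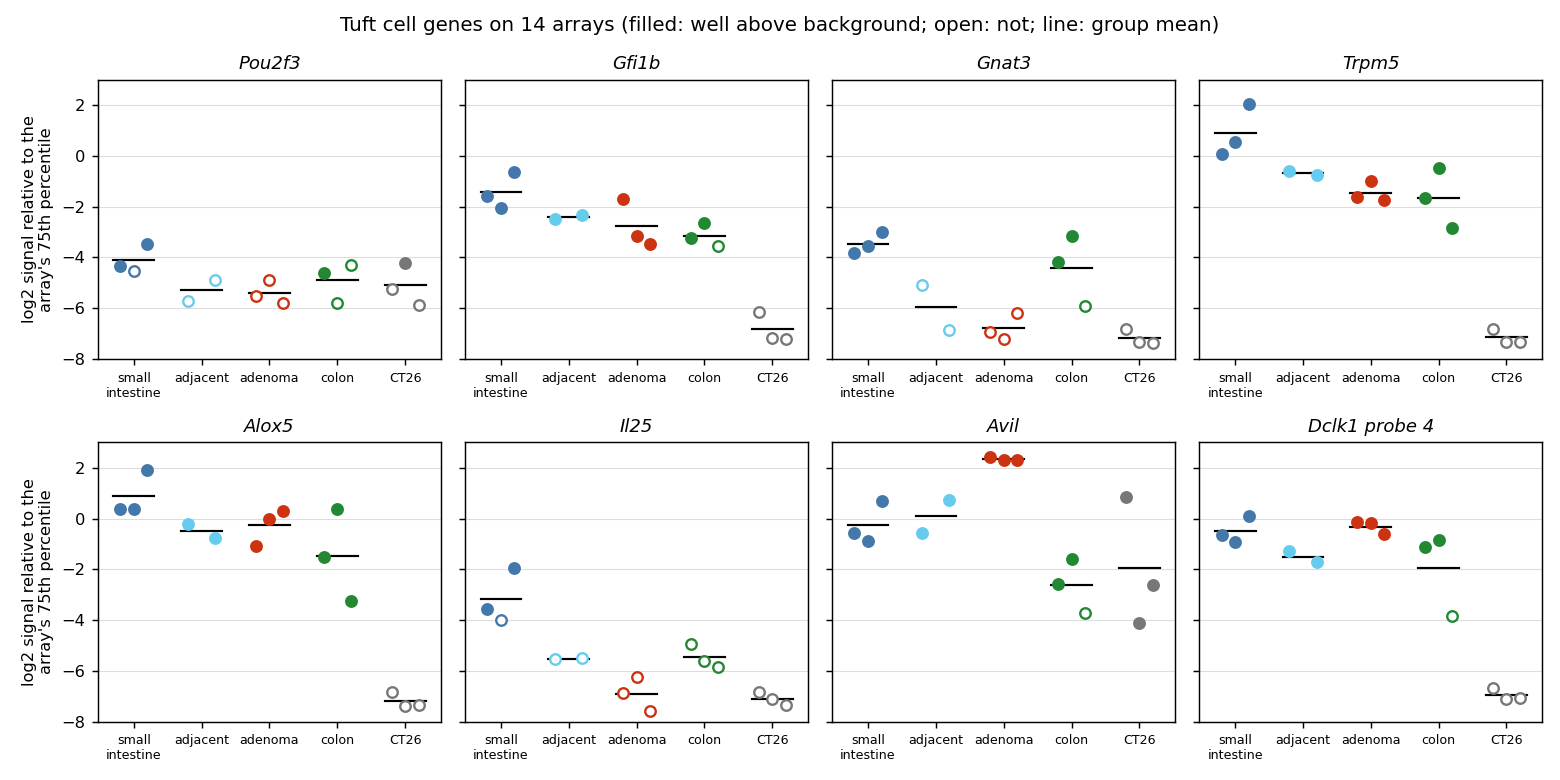
Levels of the 8 tuft cell genes on the 14 arrays (y axis, log2 signal relative to the 75th percentile of the array) by group, with *Dclk1* read from probe 4. Filled points are well above background, open points are not, and the line is the group mean. *Avil* is highest in the 3 adenomas (2.29 to 2.42), whereas *Trpm5* is highest in the 3 small intestine samples (0.08 to 2.05) and *Gnat3* is not above background in adenomas.

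Of the transcription factors, *Pou2f3* was close to the detection limit. Its level in small intestine was -4.34, -4.55 and -3.46, with the first and the last well above background. Elsewhere its probe was well above background on 1 colon array (-4.61) and 1 CT26 array (-4.20), and on no adjacent or adenoma array. On the mean of all 3 small intestine arrays, of which these 2 measured it, the level in small intestine was at least 1.84-fold that in adenomas and at least 1.29-fold that in adjacent tissue. *Gfi1b* was measured on each small intestine, adjacent and adenoma array. Its level was -1.57, -2.04 and -0.64 in small intestine, -2.49 and -2.31 in adjacent tissue, and -1.68, -3.14 and -3.46 in adenomas. The adenomas overlapped the small intestine, and the difference of -1.34 (SE 0.54) had an adjusted p of 0.0716 (-0.95 and 0.194 without small intestine replicate 3). In colon it was -3.22, -2.66 and, not well above background, -3.55, below each small intestine sample, with a difference of -1.73 (SE 0.43) and an adjusted p of 0.0999.

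*Gnat3*, the gustducin subunit, was measured in small intestine (-3.81, -3.55 and -2.99) and on colon replicates 1 and 2 (-4.17 and -3.15). It was not well above background on the 2 adjacent, 3 adenoma and 3 CT26 arrays nor on colon replicate 3. Small intestine was at least 3.04-fold higher than adenomas, with an adjusted p of 0.000382, and the groups did not overlap. Without small intestine replicate 3 it was at least 2.59-fold higher (adjusted p 0.00123). The call was lost on size in the authors' normalized table (-0.89) and with normexp background correction (-1.17). Against adjacent tissue the small intestine was at least 2.05-fold higher, with an adjusted p of 0.0654, which did not pass. Colon and small intestine overlapped (difference -0.96, SE 0.68, adjusted p 0.425). Colon replicate 3 decided whether *Gnat3* was tested between adenomas and colon. Without it colon was at least 2.62-fold higher, with an adjusted p of 0.00502. That omission removed the colon array on which *Gnat3* was not well above background. It brought the probe into the test through colon alone, so the value is a description.

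*Trpm5*, the channel downstream of gustducin, was 0.08, 0.55 and 2.05 in small intestine, -0.60 and -0.76 in adjacent tissue, and -1.62, -0.98 and -1.74 in adenomas. The 3 groups did not overlap, with small intestine highest and adenomas lowest. The adenomas were 5.07-fold below the small intestine (log2 difference -2.34, SE 0.50, adjusted p 0.00811), and without small intestine replicate 3 the difference was -1.76 with an adjusted p of 0.00539. This call was close to the threshold. The adjusted p was 0.0178 with slide as a block, 0.0155 with a replicate block, 0.0179 without a filter on dim probes, 0.0188 without small intestine replicate 2, and 0.0317, 0.0197 and 0.0311 without adenoma replicate 1, 2 or 3. Within slide 1 the difference was -2.75 and within slide 2 it was -1.53. The step from small intestine to adjacent tissue (-1.57, SE 0.58, adjusted p 0.139) and that from adjacent tissue to adenomas (-0.77, SE 0.26, adjusted p 0.091) did not pass on their own. Without small intestine replicate 3 the first step was -0.99 (adjusted p 0.156). In colon *Trpm5* was -1.64, -0.49 and -2.83, lower than in each small intestine sample, with a difference of -2.55 (SE 0.73) and an adjusted p of 0.119. The adenomas and colon overlapped.

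Of the genes of the secreted products, *Alox5*, the 5-lipoxygenase gene that leukocytes use too, was 0.37, 0.37 and 1.91 in small intestine, -0.20 and -0.78 in adjacent tissue, and -1.07, -0.02 and 0.30 in adenomas. Adenomas lay below the small intestine without overlap, but the difference of -1.14 (SE 0.52) had an adjusted p of 0.101 (-0.63 and 0.248 without small intestine replicate 3). Adenomas and adjacent tissue overlapped. *Il25* was well above background on small intestine replicates 1 and 3 (-3.57 and -1.96) and on no other array of the series. On the mean of all 3 small intestine arrays, of which these 2 measured it, small intestine was at least 3.68-fold above adenomas, at least 2.48-fold above adjacent tissue and at least 2.58-fold above colon. It passed between adenomas and small intestine where dim probes were not filtered out (adjusted p 0.00494) and where small intestine replicate 2 was left out (adjusted p 0.00376). That omission removed the small intestine array on which *Il25* was not well above background. It thus brought the probe into the test through small intestine alone, and the second value is a description.

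*Avil* was the gene of the 8 with the tightest adenoma values and the reverse direction. Its level was 2.42, 2.29 and 2.31 in adenomas, -0.57 and 0.74 in adjacent tissue, and -0.56, -0.90 and 0.70 in small intestine. Every adenoma was above every adjacent and small intestine sample. Against small intestine the adenomas were 6.04-fold higher (log2 difference 2.59, SE 0.39, adjusted p 0.00211). The difference was 2.30 within slide 1 and 3.19 within slide 2, and 3.07 (adjusted p 0.000283) without small intestine replicate 3. The adjusted p was 0.0108 and 0.0116 without adenoma replicate 1 or 2, and 0.0586 where 1 spread was estimated over all 5 groups. Against adjacent tissue the adenomas were 4.76-fold higher (2.25, SE 0.38), with an adjusted p of 0.0163 that did not pass. Without adjacent replicate 2 the difference was 2.91, which rests on 1 adjacent array and holds no spread between adjacent pieces.

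In colon *Avil* was -2.58, -1.59 and, on replicate 3 and not well above background, -3.71. Adenomas were 31.3-fold above colon (4.97, SE 0.52, adjusted p 0.00441), and without colon replicate 3 the difference was 4.43 with an adjusted p of 0.000725. It was 3.96 within slide 1 and 5.44 within slide 2, and with slide or replicate number as a block the adjusted p was 0.0151 and 0.0183. The adjusted p was above the threshold without adenoma replicate 1, 2 or 3 (0.0339, 0.0377 and 0.0282) and without colon replicate 1 (0.0198). With 1 probe per gene, *Avil* was the only 1 of the 8 genes well above background on each CT26 array, at 0.85, -4.12 and -2.62. CT26 replicate 1 stood far above the other two, the CT26 and colon samples overlapped, and the difference of 0.66 (SE 1.19) had an adjusted p of 0.67. Of 8 markers of neurons, which can express *Avil* and *Dclk1*, 1 was called between adenomas and small intestine, *Snap25*, which was lower in adenomas. Of all probes tested there, 21.9% were called. The median level of the 8 was -1.77 to -1.35 in adenomas and -1.72 to -1.02 in small intestine, which overlap, and their summed level (on the linear scale, in units of the 75th percentile) was 9.63 to 11 and 38.1 to 69.6. In small intestine that sum was mostly *Snap25*, at 5.11, 6.03 and 6.07 on the log2 scale. The other neuron markers lay below the 75th percentile there. In adenomas *Snap25* was 1.91, 2.97 and 2.99. The summed level of mast cell markers was 48.4 to 130 in adenomas and 0.833 to 16.6 in small intestine. The part of either list in the result was not tested.

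The *Dclk1* probes differed between adenomas and small intestine in whether they passed the test. Probes 1 and 2, near the start of the measured stretch, were higher in adenomas than in any other tissue, while the difference between adenomas and small intestine on probe 4 did not pass the test. Probe 1 was -1.30, -1.15 and -1.52 in adenomas, -2.57 and -3.07 in adjacent tissue, and -2.47, -2.44 and -2.00 in small intestine. Probe 2 was -0.96, -1.03 and -1.29 in adenomas, -2.73 and -2.46 in adjacent tissue, and -2.92, -2.69 and -2.12 in small intestine. On both probes the adenomas lay above every sample of the other tissues. Probe 4 was -0.14, -0.19 and -0.61 in adenomas, -1.29 and -1.70 in adjacent tissue, and -0.63, -0.94 and 0.10 in small intestine. On this probe adenomas and small intestine overlapped and the adjacent tissue was below both. Probe 3 was not well above background on any array.

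**Figure D2:**
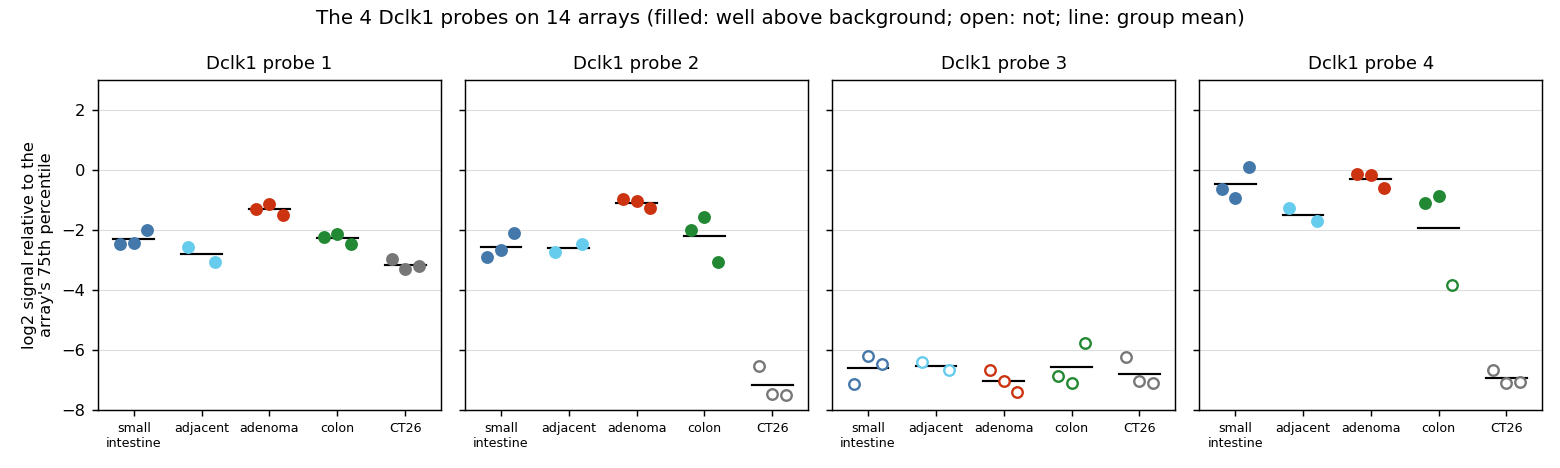
Levels of the 4 *Dclk1* probes on the 14 arrays (y axis, log2 signal relative to the 75th percentile of the array) by group. Filled points are well above background, open points are not, and the line is the group mean. The adenomas are apart from the other tissues on probes 1 and 2, overlap the small intestine on probe 4, and in CT26 probe 1 alone is well above background.

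Between adenomas and small intestine the difference was 0.98 on probe 1 (SE 0.20, adjusted p 0.00644, below the minimum difference), 1.49 on probe 2 (SE 0.24, adjusted p 0.00275, called) and 0.18 on probe 4 (SE 0.29, adjusted p 0.625). On probe 2 the adenomas were thus 2.80-fold higher, and the value was 1.39 within slide 1, 1.67 within slide 2 and 1.72 without small intestine replicate 3. The call on probe 2 was lost without small intestine replicate 2 (adjusted p 0.0122) and without adenoma replicate 1 or 2 (0.0144 and 0.0154). It was also lost on size in the authors' normalized table (1.15) and with normexp background correction (1.07), and on the adjusted p with 1 fit over all 5 groups (0.0105) and with a replicate block (0.0112). Against adjacent tissue 3 probes ran the same way, at 1.50 on probe 1 (SE 0.22, adjusted p 0.0112), 1.50 on probe 2 (SE 0.18, adjusted p 0.00761, called) and 1.19 on probe 4 (SE 0.22, adjusted p 0.0218). The call on probe 2 was lost when any 1 adenoma array was left out, with adjusted p between 0.0261 and 0.0479. Without adjacent replicate 1 or 2, which leaves 1 adjacent array, the difference was 1.37 and 1.64. It was lost as well without a filter on dim probes, with 1 fit over all 5 groups and with slide or replicate number as a block (adjusted p 0.0302, 0.0852, 0.0162 and 0.0304), and on size with normexp correction (1.04). In colon probe 1 was -2.24, -2.14 and -2.46, inside the range of the small intestine, and the adenomas were 1.94-fold above it (0.95, SE 0.20, adjusted p 0.0314).

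The probes also sorted differently beside the other members. Over the 11 tissue arrays, which share slides and the 5 pieces of 1 mouse, probe 4 correlated with *Trpm5* at r = 0.58 and with *Alox5* at r = 0.80, whereas probe 1 correlated with them at -0.15 and 0.17 and probe 2 at -0.15 and 0.22. Without colon replicate 3, an omission chosen after the values were seen, the correlation of probe 4 with *Trpm5* was 0.27 and that with *Alox5* was 0.49. With *Avil* the 3 probes correlated at 0.61, 0.69 and 0.71, and at 0.62, 0.59 and 0.51 without that array. These correlations are descriptions over few arrays.

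RefSeq (GRCm38.p6) lists 2 start sites of *Dclk1* on the plus strand, 219 kb apart. The 250 bases before each are printed, since the probes of this gene differed. They are in another build than the probes, so the probes were not placed against them.
Dclk1 upstream of the first start, chr3:55242114-55242363: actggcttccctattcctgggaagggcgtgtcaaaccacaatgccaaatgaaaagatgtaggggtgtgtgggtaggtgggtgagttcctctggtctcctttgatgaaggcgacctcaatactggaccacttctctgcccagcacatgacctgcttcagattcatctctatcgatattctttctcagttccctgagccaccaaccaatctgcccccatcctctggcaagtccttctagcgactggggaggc
Dclk1 upstream of the second start, chr3:55461478-55461727: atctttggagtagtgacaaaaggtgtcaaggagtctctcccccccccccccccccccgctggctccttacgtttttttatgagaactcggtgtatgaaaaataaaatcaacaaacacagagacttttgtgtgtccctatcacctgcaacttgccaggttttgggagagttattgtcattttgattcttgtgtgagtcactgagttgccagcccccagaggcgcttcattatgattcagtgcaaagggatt
The POU octamer ATGCAAAT, the motif of the factor family of *Pou2f3*, and its looser form ATGCNAAT (which contains it) were searched on both strands from 250 bases before to 50 bases after each start. The table held 7 promoters of 6 of the 8 genes, without *Pou2f3* and *Il25*. None of the 7 held either form, where 1.74% and 3.15% of 32851 promoters did.

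The other comparisons called few of the 8 genes. Between adenomas and adjacent tissue 5 were tested and 0 were called in limma, with 3 at an unadjusted p under 0.05. Over all probes in that comparison 38.1% had such a p and 3.98% were called. Between adjacent tissue and small intestine 6 were tested, 0 were called and 4 had an unadjusted p under 0.05, with a median difference of -1.19 against -0.09 over all probes. In that comparison 30.3% of all probes had an unadjusted p under 0.05 and 0.00694% were called, which is 2 of 28834. Between colon and small intestine 6 were tested and 0 were called, with 4 at an unadjusted p under 0.05, a median difference of -2.04 against -0.08. Of all probes there, 23.5% had such a p and 0.00733% were called. Without colon replicate 3 the share of probes called was 6.94% and again none of the 8 was called, with adjusted p of 0.0563 for *Gfi1b*, 0.0586 for *Avil* and 0.0754 for *Trpm5*, each lower in colon. Between adenomas and colon 5 were tested and *Avil* was called, where 3.42% of probes were. Several of these comparisons share small intestine, adenoma or colon arrays, so they are not independent of each other.

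**Figure D3:**
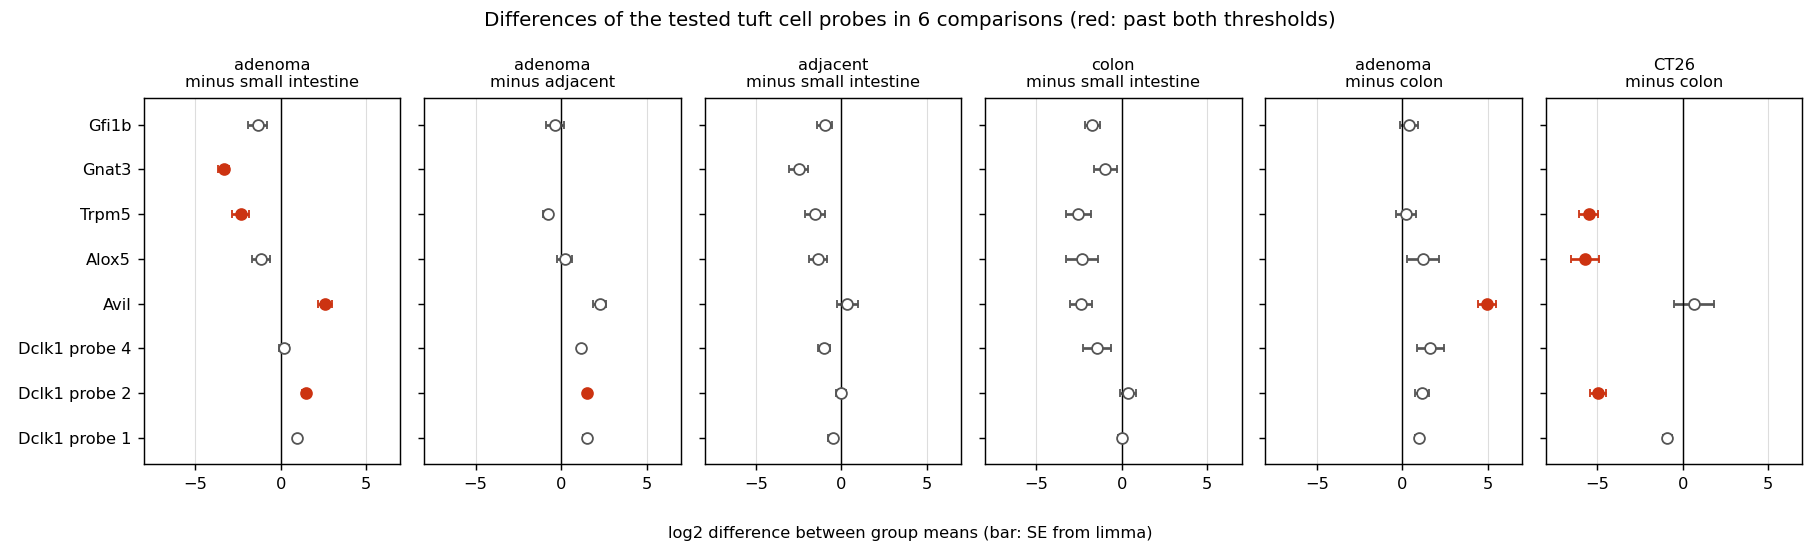
Log2 differences between group means (x axis) of the tuft cell probes tested in each of the 6 comparisons, with the SE from limma as bars and red for those past both thresholds. *Avil* lies right of 0 and *Gnat3* and *Trpm5* left of it between adenomas and small intestine, and a probe with no point was not tested in that comparison.

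In CT26 cells most of the genes were not detected. *Trpm5*, *Gfi1b*, *Il25*, *Gnat3*, *Alox5* and *Dclk1* probe 4 were not well above background on any of the 3 CT26 arrays, and their levels there lay between -7.39 and -6.14. Against colon 3 genes were tested and 2 were called, both lower and both tested through their colon level alone, where 36.4% of all probes were called. Colon was at least 12.3-fold above CT26 for *Trpm5* (adjusted p 0.000176) and at least 14-fold for *Alox5* (adjusted p 0.000863). On *Dclk1* probe 2, where CT26 was at -6.55, -7.49 and -7.50 and colon at -2.02, -1.56 and -3.09, colon was at least 8.31-fold higher (adjusted p 0.000119). This probe too was tested through colon alone. *Dclk1* probe 1 was well above background in CT26 at -2.99, -3.32 and -3.22, with a difference from colon of -0.90 (SE 0.27, adjusted p 0.0255). Without colon replicate 3, which brought more probes into the test, 5 genes were called, all lower in CT26. Colon was then at least 18.5-fold higher for *Trpm5*, 26-fold for *Alox5*, 19.5-fold for *Dclk1* probe 4, 5.05-fold for *Gfi1b* (adjusted p 0.000245) and 3.06-fold for *Gnat3* (adjusted p 0.000304), where 39% of probes were called. None of these 5 was well above background on any CT26 array. They were tested through colon alone, so the count is a description.

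Of 17 further genes of tuft cell surface and signalling on the array, 16 were tested between adenomas and small intestine and 9 were called, each lower in adenomas. Of all probes tested there, 10.9% were called lower. The median difference of the 16 was -1.51, against -0.15 over all probes. The sialic acid lectin *Siglecf* went from 0.71, 1.36 and 2.58 in small intestine to -2.17, -1.90 and -2.23 in adenomas (-3.65, SE 0.44, adjusted p 0.00086), and the regulator of G-protein signalling *Rgs13* from 1.31, 1.48 and 2.26 to -1.32, -1.06 and -1.77 (-3.07, SE 0.30, adjusted p 0.0004). These 2 genes did not overlap between the groups. *Ly6g6f* (-3.42, above background on 1 of 3 adenoma arrays), the adaptor gene *Sh2d7* (-3.06), *Matk* (-1.92), *Kctd12* (-1.92), the Tec kinase *Bmx* (-1.85), the interleukin 25 receptor subunit *Il17rb* (-1.53) and the leukocyte antigen *Ptprc* (-1.43) were the other 7. *Chat*, the acetylcholine synthesis gene, had a difference of -1.49 and an adjusted p of 0.0237 and did not pass. Without small intestine replicate 3 the count was 8, without replicate 2 it was 6, and without any 1 adenoma it was 5. Calls over all probes, in either direction, fell too. They were 6462 of 29540 with all arrays, 5519 of 29727 without small intestine replicate 3 and 5113 of 30537 without replicate 2. Without adenoma replicate 1, 2 or 3 they were 4366 of 30379, 4188 of 30095 and 4355 of 29624. *Ptprc*, *Vav1* and *Kctd12* are among the genes of this list that leukocytes also express. Whether leukocytes express the others, *Siglecf* and *Rgs13* included, was not assessed, and no markers of eosinophils or lymphocytes were read. Macrophage marker medians were -0.43 to 0.17 in small intestine and -0.42 to 0.27 in adenomas, and neutrophil marker medians were -4.90 to -4.20 and -1.01 to -0.75. The part of these cells in the result was not tested.

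**Figure D4:**
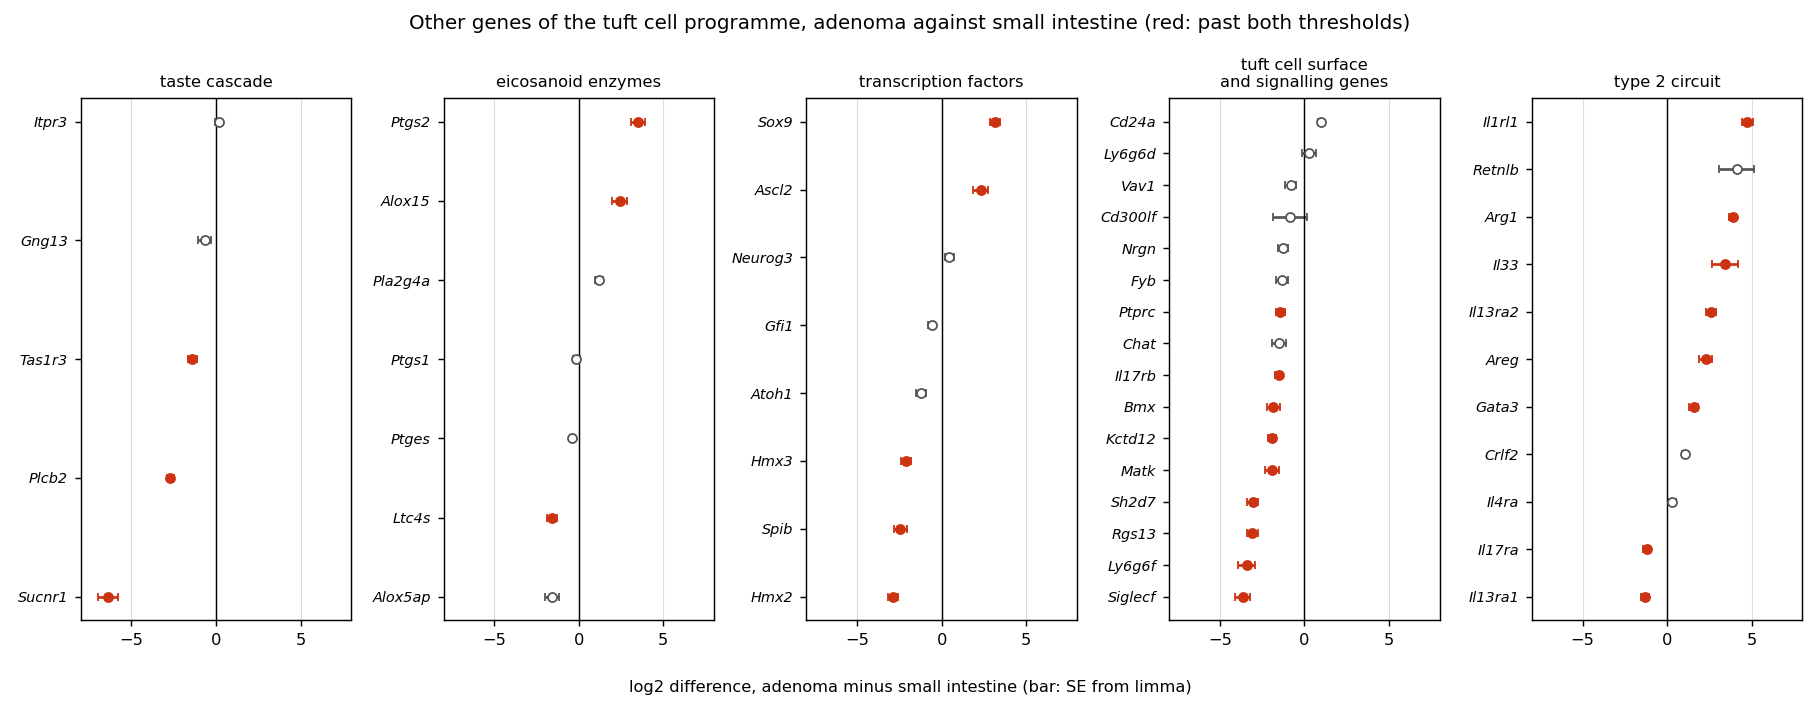
Log2 differences between adenomas and small intestine (x axis) for the tested genes of 5 lists related to tuft cells, with the SE from limma as bars and red for genes past both thresholds. The 9 called genes of the surface and signalling list are left of 0, between -3.65 (*Siglecf*) and -1.43 (*Ptprc*), while 6 called genes of the type 2 circuit are right of 0.

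In the taste cascade 5 of 8 genes were tested and 3 were called, all lower in adenomas, where 10.9% of all probes tested were called lower. The succinate receptor *Sucnr1* went from -0.18, 0.39 and 1.50 in small intestine to -6.96, -5.48 and -5.04 in adenomas, where 1 of the 3 arrays was above background (-6.39, SE 0.59, adjusted p 0.000305). Small intestine was at least 5.35-fold higher for the phospholipase *Plcb2* (adjusted p 0.000146), which was tested through small intestine alone. The sweet and umami coreceptor *Tas1r3* differed by -1.41 (adjusted p 0.00428). The G-protein subunit *Gng13* (-0.67, adjusted p 0.159) and the calcium channel *Itpr3* (0.15, adjusted p 0.569) did not pass. Without small intestine replicate 3, 2 of the 5 were called, where 18.6% of all probes tested were. Of 8 eicosanoid genes 7 were tested. Cyclooxygenase 2 (*Ptgs2*, 3.50, adjusted p 0.00071) was higher in adenomas, as was *Alox15*, which was at least 1.48-fold higher (adjusted p 0.00475). *Alox15* was tested through adenomas alone. Leukotriene C4 synthase (*Ltc4s*) was lower (-1.56, adjusted p 0.0052), and *Alox5ap*, the partner of 5-lipoxygenase, differed by -1.57 with an adjusted p of 0.0162. *Ptgs1*, a known tuft cell gene, differed by -0.15 (adjusted p 0.584).

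Of 8 transcription factor genes of the secretory and tuft lineages, 5 were called between adenomas and small intestine. Of all probes tested there, 10.9% were called higher and 10.9% lower. *Sox9* (3.15, adjusted p 0.000288) and *Ascl2* (2.32, adjusted p 0.00562), which crypt base cells express and which respond to Wnt signalling, were higher. The homeobox genes *Hmx2* (-2.89, adjusted p 0.000466, above background on 2 of 3 adenoma arrays) and *Hmx3* (-2.12, adjusted p 0.00139) and the Ets factor *Spib* (-2.44, adjusted p 0.0025) were lower. *Atoh1*, the master gene of the secretory lineage, differed by -1.23 with an adjusted p of 0.0103. In the type 2 circuit 11 of 15 genes were tested, with 6 higher and 2 lower, against 10.9% of all probes in each direction. *Il33*, an alarmin, rose by 3.44 (adjusted p 0.00932) and its receptor gene *Il1rl1* by 4.74 (adjusted p 0.00014). *Arg1* (3.88), the decoy receptor *Il13ra2* (2.57), *Areg* (2.29) and *Gata3* (1.56) were higher too (in small intestine *Arg1* was above background on 1 array, *Il13ra2* and *Gata3* on 2), while *Il13ra1* (-1.29) and *Il17ra* (-1.21), receptor subunits for interleukins 13 and 25, were lower. The cytokine genes *Il13*, *Il5* and *Il9* were not well above background on any array. Without adenoma replicate 1 or 2 the 6 higher genes were 3, and without replicate 3 they were 4. Calls over all probes, in either direction, were 6462 of 29540 with all arrays. They were 4366 of 30379, 4188 of 30095 and 4355 of 29624 without adenoma replicate 1, 2 or 3.

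The same lists held few calls against adjacent tissue, which shares the mouse with the adenomas and where 3.98% of all probes tested were called. *Siglecf* (-1.81, adjusted p 0.00655) and *Hmx2* (-1.50, adjusted p 0.00608) were lower in adenomas, and *Sox9* (2.17, adjusted p 0.0071), *Cd24a* (1.31, adjusted p 0.00628), *Il33* (2.31, adjusted p 0.00593) and *Il1rl1* (2.42, adjusted p 0.00722) were higher. None of the 5 lists held a call between adjacent tissue and small intestine or between colon and small intestine, and *Il33* (4.89, adjusted p 0.00824) was the 1 gene called between adenomas and colon. Without colon replicate 3 the taste cascade list held 2 genes lower in colon than in small intestine and the transcription factor list held 4 lower in adenomas than in colon. Over all probes the share called in these 2 comparisons was then 6.94% and 11.2%, against 0.00733% and 3.42% with that array. In CT26 against colon 7 of 10 tested surface and signalling genes were lower, namely *Cd24a*, *Vav1*, *Kctd12*, *Il17rb*, *Cd300lf*, *Ptprc* and *Fyb*. Of all probes tested there, 36.4% were called and 14.9% were called lower. Without colon replicate 3 the count was 14 of 16, where 39% of probes were called. *Cd24a*, *Vav1*, *Kctd12* and *Il17rb* were not well above background on any CT26 array. They were tested through their colon level alone, so these counts are descriptions. *Atoh1*, *Spib*, *Gfi1*, *Ascl2*, *Hmx3* and *Neurog3* were lower in CT26 than in colon, and *Hmx2*, above background on 2 of 3 colon arrays, was higher (2.52, adjusted p 0.00715). Of these, *Atoh1*, *Spib*, *Gfi1* and *Hmx3* were not well above background on any CT26 array and were tested through colon alone. *Ptgs1* (4.19, adjusted p 0.000175) and *Ptgs2*, which 1 of the 3 colon arrays measured above background (8.39, adjusted p 0.000448), were higher in CT26 and *Ltc4s* lower (-1.65, adjusted p 0.00512). CT26 was at least 5.74-fold higher for *Tas1r2* (adjusted p 0.0016), which was tested through CT26 alone. *Il1rl1* and *Gata3* were higher, and *Il33*, *Il4ra*, *Il13ra1* and *Retnlb* lower, in CT26. *Retnlb* was tested through colon alone.

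*Bmx* and *Siglecf*, from the list of tuft cell surface and signalling genes above, were among the genes closest in pattern to *Trpm5*. Among 22669 genes compared over the 11 tissue arrays, the highest Pearson correlations with *Trpm5* were those of *Bmx* (r = 0.981), *Siglecf* (0.972), *Gm4952* (0.966), a transcript with no gene symbol (0.966) and *Tpra1* (0.962). *Gm4952*, the transcript with no gene symbol and *Tpra1* are on none of the lists above. Without colon replicate 3 the correlation was 0.979 for *Bmx*, 0.965 for *Siglecf* and 0.989 for the transcript with no gene symbol. *Bmx* was 0.42, 0.72 and 1.88 in small intestine, 0.01 and 0.24 in adjacent tissue, -0.98, -0.55 and -1.01 in adenomas and -0.71, -0.12 and -1.48 in colon, so that small intestine replicate 3 was highest, as it was for *Trpm5*. The genes closest to *Dclk1* probe 4 were *Tagln2* (0.978), *Vps72* (0.951), *Parp2* (0.949), *Cdk7* (0.948) and *S100a2* (0.942), none of them on the tuft cell lists. Without colon replicate 3 the first was 0.935 and the others were 0.769 to 0.831. Among the 8 genes *Trpm5* correlated with *Alox5* at 0.86, with *Gfi1b* at 0.82 and with *Avil* at 0.18, and without colon replicate 3 at 0.82, 0.78 and -0.18.

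**Figure D5:**
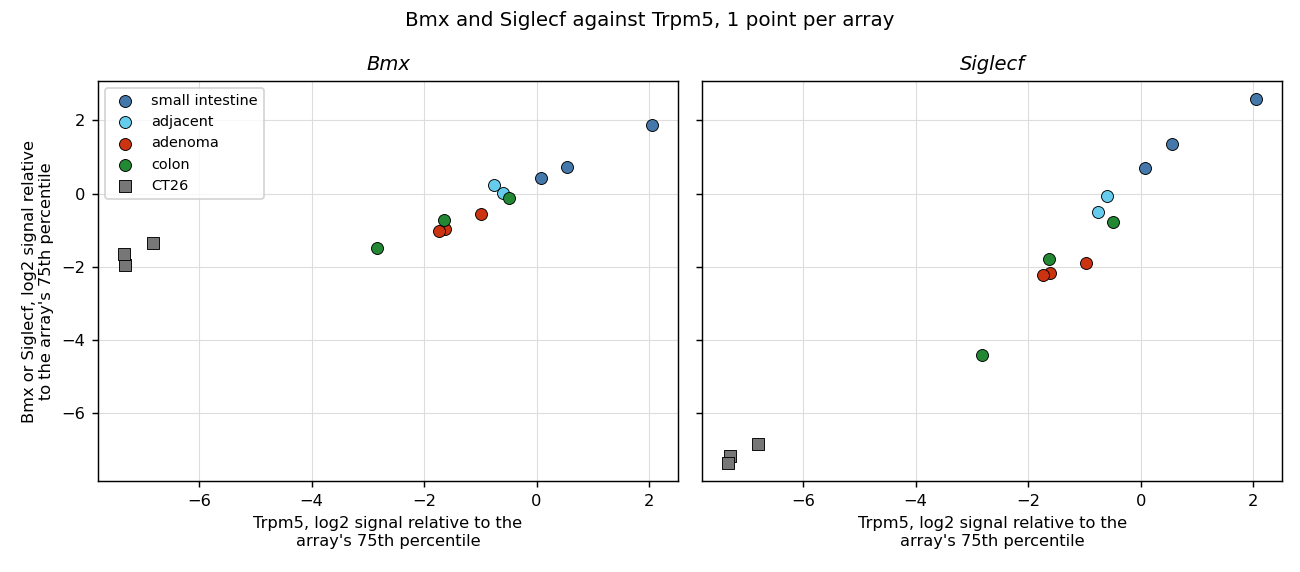
Levels of *Bmx* and *Siglecf* (y axes) against *Trpm5* (x axis), all as log2 signal relative to the 75th percentile of the array, with 1 point per array coloured by group and squares for CT26. Small intestine replicate 3 is at the upper right and the adenomas lie below the small intestine on both axes, and the correlations of 0.981 and 0.972 in the text leave out CT26.

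Levels of other epithelial and stromal cell types moved between the same groups. Of all probes tested between adenomas and small intestine, 10.9% were called higher and 10.9% lower. Summed enteroendocrine markers were 223 to 248 in small intestine and 44.5 to 51.4 in adenomas, with 6 of 8 genes called lower, and 6 of 10 small intestine enterocyte genes were called lower as well. The median of 8 epithelial markers was 7.98 to 8.49 in small intestine and 7.23 to 7.63 in adenomas. Of 8 Wnt target genes 7 were called higher in adenomas. Mast cell genes were higher in 6 of 7 tested, and erythroid markers had medians of -3.94 to -3.21 in small intestine and 0.55 to 0.80 in adenomas. *Gfi1b*, which erythroid cells also express, had a difference of -1.34 that was not called. The part of these shifts in the tuft cell results was not tested.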

How the data were processed

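RNA of 14 mouse samples was measured on 1-colour Agilent arrays. The authors deposited the scanner output, which per the file headers comes from Feature Extraction 10.7.3.1. The deposited processed signal of a spot is an intensity after background subtraction and was not made comparable across arrays. A second deposited table holds log2 values that the authors normalized by a method not given in the sources used here. It served as an alternative, and the fold changes and p-values it holds were not used. The precision rests on the number of arrays and on signal over background.

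Control spots and outlier spots (103 to 206 per array) were left out. The log2 processed signal minus the 75th percentile of each array was averaged over the spots of a probe, which gave 55681 probes, of which 26576 were named by RefSeq accession (GRCm38.p6, names only). Groups came from the sample labels. Each comparison was fitted with limma 3.58.1 in R 4.3.3 on its own arrays, over probes that in 1 or both groups exceeded background (the scanner's flag) on each array, with Benjamini-Hochberg adjustment over all of them. The thresholds, a log2 difference of 1.2 and an adjusted p of 0.01, follow the study's methods. Of several probes for a gene, that of highest mean signal was used. Where no array of a group measured a probe above background, the fold is a lower bound against the lowest signal well above background on those arrays. The fit was tested on simulated data. Every probe of the 8 genes was named, with each called gene of 5 related lists, up to 4 others per list and the 5 genes most like *Dclk1* and *Trpm5*. Of the genes first listed, 2 are not reported here and were left out of every count. The genes, lists and tests were chosen with earlier results of these data known.

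Alternatives were quantile normalization, normexp correction of background (offset 50), the authors' table, filters on dim probes, the mean of all probes, 1 fit of all 5 groups, an intensity trend, blocks for slide or for replicate number (by label and, added later, by sample title), a threshold of 0.05 and the omission of each array.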

Additional observations from a re-analysis of the deposited data

How the results depend on the processing

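For the 8 genes, 82 counts of calls over the 6 comparisons stayed within 1.5 times the reported count under the alternatives, 7 were higher and 11 lower. Between adenomas and small intestine (3 called) the omission of single arrays gave 1 to 3 genes, 1 without adenoma replicate 1 or 2. Without those replicates 4366 of 30379 and 4188 of 30095 probes were called, against 6462 of 29540 with all arrays. Between adenomas and adjacent tissue (0 called) the count was 1 with normexp correction and with an intensity trend, and 2 at an adjusted p of 0.05 without a minimum difference. The omission of an adjacent array leaves 1 in that group, so no count is drawn from it. Between adenomas and colon (1 called) the count was 0 with slide as a block, with a replicate block and where each array had to measure the probe above background, and 0 to 2 with single arrays left out, the highest without colon replicate 3. Without that array 11.2% of all probes were called, against 3.42% with it. Between CT26 and colon (2 called) the count was 1 in the authors' table, 4 without a filter on dim probes, 0 where each array had to measure the probe above background, and 2 to 5 with single arrays left out, again highest without colon replicate 3. Without that array 39% of all probes were called, against 36.4% with it. The causes were not tested, apart from the filters, which change which probes are tested.

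Of the single differences, 439 kept their sign and call, 19 lost a call, 3 gained one and 12 changed sign, none of the last a called value. Leaving out single arrays moved these differences across 0. *Dclk1* probe 4 ranged from -0.04 (without small intestine replicate 2) to 0.47 between adenomas and small intestine, *Alox5* from -0.06 (without adjacent replicate 2 or adenoma replicate 3) to 0.63 between adenomas and adjacent tissue, and *Avil* from -0.31 (without adjacent replicate 2) to 1.0 between adjacent tissue and small intestine. Between adenomas and colon *Trpm5* ranged from -0.38 (without colon replicate 3; -0.03 without adenoma replicate 2) to 0.79 and *Gfi1b* from -0.16 (without adenoma replicate 1) to 0.74. Between CT26 and colon *Avil* ranged from -0.74 (without CT26 replicate 1) to 1.74. With a replicate block *Alox5* between adenomas and adjacent tissue was -0.06, with slide as a block *Avil* between CT26 and colon was -0.13, and with normexp correction *Trpm5* and *Gfi1b* between adenomas and colon were -0.07 and -0.00. In settings added after the values were seen, *Dclk1* probe 2 between adjacent tissue and small intestine was 0.03 with normexp correction, 0.21 with a replicate block and -0.19 to 0.21 with single arrays left out. *Dclk1* probe 1 between colon and small intestine was -0.04 in the authors' table and with quantile normalization, and -0.06 to 0.18 with single arrays left out. Samples with the same replicate number did not deviate together in each pair (r from -0.275 to 0.322), so the numbers are not taken as pairs. The sample titles number the adjacent tissue 2 and 3, where the label used here has 1 and 2. By the titles (a pairing added after the values were seen) r was 0.0131 and -0.0998 with adenomas and -0.109 and 0.267 with small intestine. A replicate block by the titles called 0 of the 8 genes in both comparisons, and *Dclk1* probe 2 between adenomas and adjacent tissue lost its call (adjusted p 0.093). With a replicate block the *Trpm5* difference between adenomas and small intestine was -2.34 with an adjusted p of 0.0155, and *Avil* and *Gnat3* stayed called. *Gnat3* there lost its call on size in the authors' table (-0.89) and with normexp correction (-1.17).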
